A study of Mus musculus with 11 samples.

Results

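The glycolysis and hypoxia response genes are 39 listed genes that take glucose into the cell, break it down to pyruvate and lactate, and sense or respond to low oxygen. They were taken as a list of symbols drawn up with earlier results of these data known, by a rule that uses no measured value, and all 39 were found among the 27179 Entrez genes of the count tables. RNA-seq counts of 11 libraries of mouse mammary epithelial cells were used. MaSC/basal cells (CD24+CD29hi), luminal progenitor cells (LP, CD24+CD29loCD61+) and mature luminal cells (ML, CD24+CD29loCD61-) were sorted from the lineage-depleted mammary glands of wild-type virgin FVB/N females, labelled 8 weeks old, with 3 libraries each. Mammosphere cells were 1 library of MaSC/basal cells of FVB/N mice after 1 week of non-adherent culture, and the Comma Dβ line (CommaD-βGeo), 1 established line from a mid-pregnancy Balb/c gland, was 1 library. The sorted populations are enriched, not pure, and each cultured type rests on 1 library without a replicate. For Comma Dβ, culture, strain and batch cannot be told apart. The mammosphere library shares its strain with the sorted cells and its labelled batch with replicate 1 of MaSC/basal. Culture cannot be told apart there from other differences of that 1 library.

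Glycolysis converts glucose to pyruvate in the cytosol. Pyruvate then enters the mitochondria or is reduced to lactate and exported. Inside the mitochondria pyruvate dehydrogenase uses it, and the pyruvate dehydrogenase kinases restrain that enzyme. At normal oxygen, prolyl hydroxylases of the Egln family mark the HIF alpha subunits for destruction, and in hypoxia the stabilized subunits pair with Arnt and bind a short response element near genes for glucose uptake, glycolysis, lactate export and blood vessel growth. In the mammary gland glucose is also the precursor of milk lactose, and Slc2a1 encodes the main glucose transporter of the epithelium.

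Counted reads per library were 19958838 to 75795034, and 38 of the 39 members exceeded 0.5 CPM (counts scaled to a fixed library total) in all 9 primary libraries, the exception being Slc2a3. All CPM below are scaled by TMM factors, which ranged from 0.863 to 1.21. The sorted populations carried their markers. The 7 basal markers summed to 17971 to 24612 CPM in MaSC/basal cells and at most 406 CPM in luminal libraries, and the 5 luminal markers to 12763 to 16399 CPM in LP and ML libraries against 1402 to 1692 CPM in MaSC/basal cells. In the Comma Dβ library all 7 basal and all 5 luminal markers were over 2-fold lower than in MaSC/basal cells. The libraries came from 3 labelled batches. Batch 1 held the replicate 1 libraries and the mammosphere library, batch 2 held MaSC/basal 2 and 3, LP 2 and ML 2, and batch 3 held LP 3, ML 3 and Comma Dβ. MaSC/basal 1 is labelled wild type although its submitted name contains p53, and more than 1 culture may be pooled in the mammosphere library, going by its name. Transcripts of 9 members (Gpi1, Gapdh, Pgk1, Pgam1, Eno1, Pkm, Ldha, Ldhb and Bnip3) are covered over more than 40% of their length by near-identical transcripts of other genes, so that their counts may have been lost or split, and their levels are uncertain.

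Of the 39 members, 14 were higher in MaSC/basal than in LP cells at a Benjamini-Hochberg adjusted p under 0.05 in edgeR's quasi-likelihood test, where 29.4% of the 15422 genes tested were called in that direction, 6 were higher in LP cells (28% of all genes), and 19 passed in neither direction. Against ML cells, 17 members were higher in MaSC/basal cells (28.9% of all genes), 9 were higher in ML cells (29.7%) and 13 passed in neither. Between the luminal populations, 10 members were higher in LP cells (14.3% of all genes), 7 were higher in ML cells (17.5%) and 22 passed in neither. The median log2 fold change of the members was 0.21 for MaSC/basal over LP, 0.32 for MaSC/basal over ML and 0.05 for LP over ML, and that of all genes was -0.01 in each. In all, 32 members passed in at least 1 comparison and 6 in all 3. In MaSC/basal cells 12 members were higher and 4 lower than in both luminal populations. The share of all genes was not computed for these combined counts, so that they cannot be read as a trait of the members. The LP against ML counts rested on single libraries, with 6 higher in LP without LP 2 or without ML 1, and 2 higher in ML without ML 1. Every called member had the same direction within each batch that held both populations (20 of 20, 26 of 26 and 17 of 17). The calls came from these same libraries, so that this agreement was largely built in and is no separate support. With no scaling beyond library size the median of all genes shifted by 0.15 for MaSC/basal over LP and by -0.17 for LP over ML, and the share of all calls that were higher in the first group went from 51.2% to 59.8% and from 44.99% to 29.4%. Fewer cells that express a gene and less RNA per cell cannot be told apart in these bulk libraries. Proliferation genes also differed, with summed levels of 685 to 1013 CPM in MaSC/basal cells, 189 to 239 in LP cells and 180 to 255 in ML cells, and their part in the results was not tested.

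**Figure D1:**
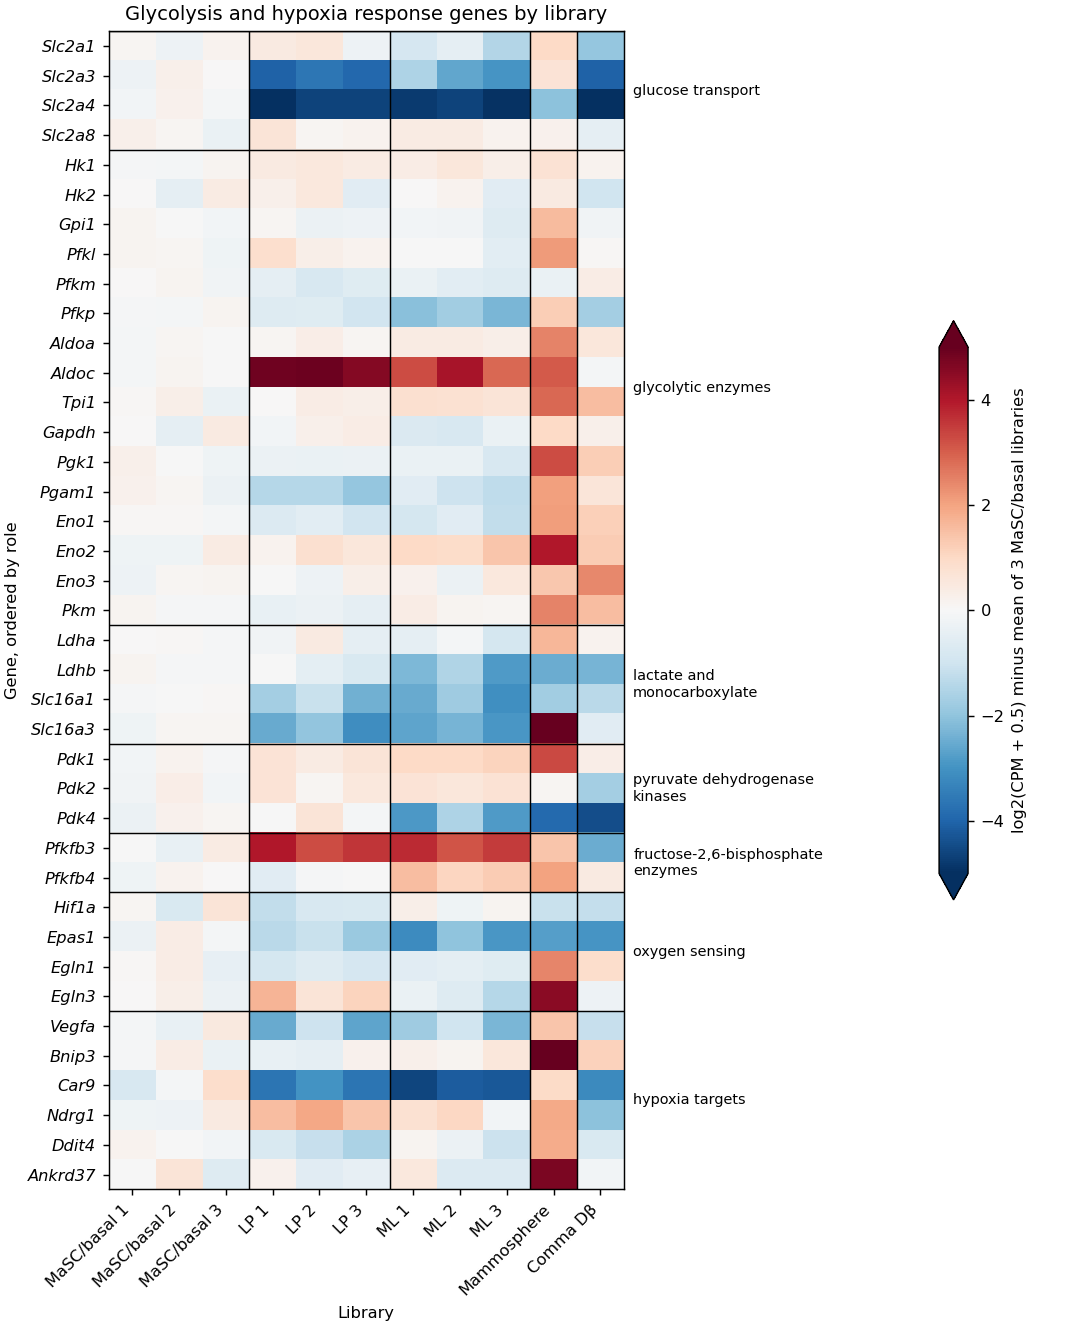
Level of each of the 39 members (rows, grouped by role) in each of the 11 libraries (columns), as log2(CPM + 0.5) minus its mean over the 3 MaSC/basal libraries, with colours saturating at 5 in either direction. Luminal columns are blue for Slc2a3, Slc2a4 and Car9, with ML paler than LP for Slc2a3, and red for Aldoc and Pfkfb3, and the mammosphere column is red for most enzymes and hypoxia targets.

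Of the 4 glucose transporters, 2 were higher in MaSC/basal than in LP cells, 3 were higher than in ML cells, and none was higher in a luminal population than in MaSC/basal cells. Slc2a4 encodes the insulin-responsive transporter of fat and muscle and lies at chr11:69942286-69948216 (GRCm38). It was at 50.4, 64.5 and 52.0 CPM in the 3 MaSC/basal libraries, 1.13, 1.78 and 1.76 in LP and 1.53, 1.73 and 1.32 in ML. Every MaSC/basal library was far above every luminal library, with log2 fold changes of 5.15 ± 0.23 (adjusted p = 1.89e-07) over LP and 5.17 ± 0.23 (adjusted p = 1.50e-07) over ML, where ± is the standard error with 3 libraries in each group. Adipocytes express Slc2a4, and the adipocyte markers Adipoq, Plin1, Cidec and Retn were under 1 CPM in every primary library. Adipoq was at 0.577, 0.179 and 0.170 CPM in MaSC/basal libraries and at most 0.0936 in luminal ones. Cfd was at 1.75, 0.199 and 0.509 CPM against at most 0.150, while Plin1 and Cidec overlapped between the groups. The adipocyte marker Fabp4 was at 43.1, 25.6 and 67.2 CPM in MaSC/basal libraries and 3.03 to 36.1 in luminal ones, and Lep was at 1.53, 4.27 and 1.22 CPM against at most 0.107. The 8 adipocyte markers summed to 39.6 to 82.3 CPM in the MaSC/basal libraries, 28.5 to 69.9 in the LP libraries and 24.7 to 45.2 in the ML libraries, Lpl being higher in LP, and their part in the Slc2a4 difference was not tested.

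Slc2a3, a high-affinity transporter best known from neurons, was at 11.3, 16.5 and 13.9 CPM in MaSC/basal, 0.353, 0.674 and 0.427 in LP and 4.33, 1.85 and 1.37 in ML libraries. The 3 groups did not overlap, in the order MaSC/basal, ML, LP, with log2 fold changes of 4.77 ± 0.47 (adjusted p = 1.60e-05) for MaSC/basal over LP, 2.46 ± 0.40 (adjusted p = 4.50e-04) over ML and -2.31 ± 0.46 (adjusted p = 0.00502) for LP over ML. The LP level rested on 10, 36 and 8 reads. Slc2a1 had the order LP and MaSC/basal above ML, at 435, 345 and 462 CPM in MaSC/basal, 568, 615 and 347 in LP and 227, 305 and 149 in ML. LP exceeded ML by 1.17 ± 0.29 (adjusted p = 0.0134) and MaSC/basal exceeded ML by 0.87 ± 0.29 (adjusted p = 0.0243). The latter call was lost without any 1 of MaSC/basal 1, MaSC/basal 3, ML 1 or ML 3 (log2 fold change 0.63 to 0.86, adjusted p = 0.0614 to 0.0770). MaSC/basal and LP overlapped, at -0.30 ± 0.28 (adjusted p = 0.387), or -0.54 (adjusted p = 0.0280) with library batch as a replicate block. Slc2a8, an intracellular transporter, was at 8.23 to 16.8 CPM in all primary libraries and passed in no comparison (adjusted p = 0.225, 0.198 and 0.960).

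Per kb of exon, Slc2a1 was the highest of the 4 in every group, with a share of 84.7% ± 3.73 (SD, n = 3) for MaSC/basal libraries, 96.4% ± 1.04 for LP libraries and 91.5% ± 2.06 for ML libraries. Slc2a4 held 10.6% ± 2.71 for MaSC/basal cells, 0.291% ± 0.137 for LP cells and 0.591% ± 0.124 for ML cells. The log2 ratio of Slc2a3 to Slc2a1 per kb was -5.89, -5.004 and -5.68 in MaSC/basal, -11.27, -10.46 and -10.29 in LP and -6.33, -7.99 and -7.39 in ML libraries. It was 3.43 ± 0.85 (SE) higher in the 3 MaSC/basal than in the 6 luminal libraries, all of which lay below them (two-sided exact permutation p = 0.0238, where 84 splits allow no p below 0.0119). Adjusted over the 12 ratio comparisons, the exact permutation p was 0.133. Within batches the MaSC/basal minus ML difference was 0.45 in batch 1 and 2.65 in batch 2, and the MaSC/basal minus LP difference was 5.39 and 5.11. The exact permutation p rose to 0.107 without any 1 MaSC/basal library and to 0.0536 without any 1 LP library.

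Among the 16 glycolytic enzymes, 4 were higher and 2 lower in MaSC/basal than in LP cells, 6 were higher and 5 lower than in ML cells, and between LP and ML 4 were higher in LP and 3 in ML. The shares of all genes were 29.4% and 28%, 28.9% and 29.7%, and 14.3% and 17.5%. The counts were not tested against them and are not read as a trait of the enzymes. The largest difference was in aldolase, the enzyme that splits fructose bisphosphate. Aldoc, the aldolase best known from brain (chr11:78323073-78327781), was at 13.1, 15.7 and 14.0 CPM in MaSC/basal, 430.5, 444 and 349 in LP and 139, 257 and 106 in ML libraries. The groups did not overlap, and the log2 fold changes were -4.84 ± 0.33 (adjusted p = 1.51e-06) for MaSC/basal over LP, -3.55 ± 0.31 (adjusted p = 6.18e-06) over ML and 1.29 ± 0.28 (adjusted p = 0.00790) for LP over ML. Aldoa, the aldolase of muscle and most cells, was at 308, 358 and 327 CPM in MaSC/basal, 357, 420.3 and 354 in LP and 435, 435 and 405 in ML libraries. MaSC/basal minus ML was -0.36 ± 0.14 (adjusted p = 0.0494), a call that was lost without any 1 of the 9 primary libraries (adjusted p = 0.0541 to 0.161). As a share of both aldolases per kb, Aldoc was 4.41% ± 0.0621 (SD, n = 3) for MaSC/basal cells, 53.6% ± 2.52 for LP cells and 28.7% ± 8.92 for ML cells.

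Phosphofructokinase, the committed step of glycolysis, also differed in its make-up. Pfkp, the platelet-type subunit, was at 165, 161 and 188 CPM in MaSC/basal, 108, 113 and 88.4 in LP and 39.7, 51.1 and 34.7 in ML libraries. These groups did not overlap, with 0.73 ± 0.17 (adjusted p = 0.00362) for MaSC/basal over LP, 2.03 ± 0.17 (adjusted p = 5.11e-06) over ML and 1.30 ± 0.17 (adjusted p = 9.63e-04) for LP over ML. Pfkl, the liver-type subunit, was at 154, 149 and 121 CPM in MaSC/basal, 253, 171 and 159 in LP and 140.1, 139 and 97.8 in ML libraries. LP over ML was 0.63 ± 0.21 (adjusted p = 0.0468), a call lost without any 1 of MaSC/basal 1, MaSC/basal 2, MaSC/basal 3, LP 1, LP 2, ML 1, ML 2 or ML 3 (adjusted p = 0.0550 to 0.152), and MaSC/basal against LP was -0.46 ± 0.21 (adjusted p = 0.0890), or -0.55 (adjusted p = 0.0174) with library batch as a replicate block. Pfkm, the muscle-type subunit, was higher in MaSC/basal cells by 0.62 ± 0.14 (adjusted p = 0.00402) over LP and 0.51 ± 0.14 (adjusted p = 0.0106) over ML, with 45.2 to 55.9 CPM in MaSC/basal and 29.1 to 39.7 in luminal libraries. Its gene overlaps Senp1. Pfkp made up 44.1% ± 5.06 (SD, n = 3) of the 3 subunits per kb for MaSC/basal cells, 29.4% ± 4.21 for LP cells and 18.8% ± 2.18 for ML cells.

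Hexokinase, which traps glucose in the cell, differed by less than 2-fold, and only Hk1 of the 2 forms passed. Hk1 was at 163, 158 and 188 CPM in MaSC/basal, 230.4, 241 and 225 in LP and 218, 247 and 208 in ML libraries, all luminal libraries being above all MaSC/basal ones. MaSC/basal minus LP was -0.45 ± 0.13 (adjusted p = 0.0124), or -0.31 (adjusted p = 0.0579) with no scaling beyond library size. MaSC/basal minus ML was -0.40 ± 0.13 (adjusted p = 0.0202), lost without any 1 of MaSC/basal 1, MaSC/basal 2 or ML 2 (adjusted p = 0.0702 to 0.0779). Hk2, the hypoxia-inducible form, was at 95.4, 68.9 and 127 CPM in MaSC/basal, 112, 136 and 64.0 in LP and 94.6, 108 and 62.8 in ML libraries and passed in no comparison. The log2 ratio of Hk2 to Hk1 per kb was -1.06, -1.48 and -0.86 in MaSC/basal, -1.33, -1.11 and -2.10 in LP and -1.50, -1.49 and -2.01 in ML libraries. It was 0.46 ± 0.24 (SE) higher in MaSC/basal than in luminal libraries, with overlap (exact permutation p = 0.0952, 0.133 adjusted over the 12 comparisons).

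The part of glycolysis from Tpi1 to Pkm holds most of the members with near-identical copies. Pgam1, phosphoglycerate mutase, was at 29.7, 26.8 and 20.3 CPM in MaSC/basal, 8.99, 9.04 and 6.25 in LP and 16.7, 12.3 and 10.3 in ML libraries, with MaSC/basal higher by 1.65 ± 0.23 (adjusted p = 1.66e-04) over LP and 0.97 ± 0.22 (adjusted p = 0.00397) over ML. LP minus ML was -0.69 ± 0.23 (adjusted p = 0.0442), lost without any 1 of MaSC/basal 1, MaSC/basal 2, LP 1, LP 2, LP 3, ML 1 or ML 2 (adjusted p = 0.0540 to 0.182). Among the enolases, Eno1, the general form, was at 60.8, 61.5 and 55.1 CPM in MaSC/basal, 36.8, 40.6 and 30.1 in LP and 32.3, 40.3 and 24.7 in ML, higher in MaSC/basal by 0.72 ± 0.18 (adjusted p = 0.00665) and 0.86 ± 0.18 (adjusted p = 0.00225). Eno2, the neuronal form, was lower in MaSC/basal than in ML cells, at 3.97, 3.89 and 6.39 CPM in MaSC/basal, 5.22, 8.499 and 7.16 in LP and 9.87, 9.09 and 12.9 in ML, with MaSC/basal minus ML at -1.16 ± 0.26 (adjusted p = 0.00308). Eno3, the muscle form, was at 5.72, 7.36 and 7.65 CPM in MaSC/basal, 6.67, 5.73 and 8.44 in LP and 8.06, 5.52 and 10.1 in ML libraries, passed in no comparison and overlaps Pfn1.

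Tpi1, triose phosphate isomerase, was at 124, 146 and 94.0 CPM in MaSC/basal, 122, 154 and 145 in LP and 210.0, 204 and 187 in ML libraries. MaSC/basal minus ML was -0.72 ± 0.17 (adjusted p = 0.00498). LP minus ML was -0.51 ± 0.17 (adjusted p = 0.0482), lost with library batch as a replicate block, at -0.51 (adjusted p = 0.0596), and without any 1 of MaSC/basal 1, LP 1, LP 2, LP 3, ML 1, ML 2 or ML 3 (adjusted p = 0.0694 to 0.172). Pkm, pyruvate kinase, was at 633, 558 and 553 CPM in MaSC/basal, 444, 471 and 426 in LP and 746, 644 and 626 in ML libraries. LP minus ML was -0.59 ± 0.15 (adjusted p = 0.0155), lost without any 1 of LP 1, LP 3 or ML 1 (adjusted p = 0.0555 to 0.0818), and MaSC/basal minus LP was 0.38 ± 0.15 (adjusted p = 0.0514). Pgk1, phosphoglycerate kinase, was at 26.5, 21.3 and 18.6 CPM in MaSC/basal, 17.8, 17.3 and 18.0 in LP and 17.3, 17.2 and 12.3 in ML libraries, with MaSC/basal minus ML at 0.50 ± 0.17 (adjusted p = 0.0270), lost without any 1 of MaSC/basal 1 or ML 3 (adjusted p = 0.0951 to 0.102). Gpi1, glucose phosphate isomerase, was at 212, 194 and 178 CPM in MaSC/basal, 209, 160.4 and 161 in LP and 175, 170.0 and 126 in ML libraries and passed in no comparison. Gapdh, often used as a reference gene, was listed at only 5.55, 3.83 and 7.65 CPM in MaSC/basal, 4.94, 6.59 and 7.32 in LP and 3.08, 2.95 and 4.24 in ML libraries, and 81 other genes have transcripts near-identical to part of its own. Its counts were 0.74 ± 0.29 (adjusted p = 0.0479) higher in MaSC/basal and 0.88 ± 0.29 (adjusted p = 0.0420) higher in LP than in ML cells, calls lost without any 1 of MaSC/basal 1, MaSC/basal 3, LP 2, LP 3, ML 1 or ML 2 (adjusted p = 0.0548 to 0.169) and without any 1 of MaSC/basal 1, LP 2, LP 3, ML 1 or ML 2 (adjusted p = 0.0604 to 0.124), respectively.

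Of the 4 lactate and monocarboxylate members, 2 were higher in MaSC/basal than in LP cells and 3 than in ML cells, and none was higher in a luminal population than in MaSC/basal cells. Slc16a1, a transporter that carries lactate in either direction, was at 210.1, 216 and 224 CPM in MaSC/basal, 67.0, 101 and 40.3 in LP and 37.7, 62.7 and 25.5 in ML libraries. All MaSC/basal libraries were above all luminal ones, by 1.64 ± 0.36 (adjusted p = 0.00296) over LP and 2.37 ± 0.37 (adjusted p = 3.17e-04) over ML. For LP minus ML the value was 0.73 ± 0.35 (adjusted p = 0.143), or 0.72 (adjusted p = 0.00793) with library batch as a replicate block. Slc16a3, the lactate exporter of glycolytic cells (chr11:120948484-120959000), was at 8.5, 10.5 and 10.6 CPM in MaSC/basal, 1.30, 2.15 and 0.694 in LP and 1.16, 1.58 and 0.866 in ML libraries. MaSC/basal again stood above both, by 2.73 ± 0.32 (adjusted p = 4.87e-05) and 2.97 ± 0.32 (adjusted p = 2.51e-05). Its gene overlaps Csnk1d, which was at 405 to 506 CPM in MaSC/basal and 303 to 512 in luminal libraries.

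Ldha, the dehydrogenase subunit that favours lactate formation, was at 599.9, 607 and 558 CPM in MaSC/basal, 516, 810.4 and 432 in LP and 427, 546 and 323 in ML libraries and passed in no comparison. Ldhb, the subunit of oxidative tissues, was at 49.3, 43.7 and 43.3 CPM in MaSC/basal, 44.5, 32.1 and 26.3 in LP and 9.28, 15.9 and 6.02 in ML libraries. ML was below both, by 2.11 ± 0.32 (adjusted p = 2.74e-04) for MaSC/basal over ML and 1.71 ± 0.32 (adjusted p = 0.00385) for LP over ML, and MaSC/basal minus LP was 0.40 ± 0.31 (adjusted p = 0.285). Ldhb was 10.4% ± 0.613 (SD, n = 3) of both subunits per kb for MaSC/basal cells, 8.46% ± 2.91 for LP cells and 3.34% ± 0.752 for ML cells. The log2 ratio of Ldhb to Ldha was -3.02, -3.21 and -3.11 in MaSC/basal, -2.95, -4.08 and -3.46 in LP and -4.94, -4.52 and -5.17 in ML libraries. The MaSC/basal minus luminal difference of 1.07 ± 0.36 (SE) did not pass (exact permutation p = 0.0833, 0.133 adjusted over the 12 comparisons), and without LP 1 it was 1.32 (exact permutation p = 0.0357). MaSC/basal minus ML was 1.76 ± 0.20 and LP minus ML 1.38 ± 0.38, without overlap, at the exact permutation p of 0.1 that is the smallest 3 against 3 can give. Within batches LP minus ML was 1.99, 0.45 and 1.71 in batches 1, 2 and 3.

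The pyruvate dehydrogenase kinases were split between the populations. Pdk4, the form induced by fasting, was at 310.3, 437 and 409.9 CPM in MaSC/basal, 378, 597 and 361 in LP and 52.4, 130.5 and 53.5 in ML libraries. ML was below both other groups in every library, by 2.29 ± 0.37 (adjusted p = 4.09e-04) for MaSC/basal over ML and 2.497 ± 0.37 (adjusted p = 0.00150) for LP over ML. Pdk1, the hypoxia-inducible form, was at 18.5, 22.7 and 19.5 CPM in MaSC/basal, 33.2, 27.2 and 31.8 in LP and 41.1, 41.1 and 44.7 in ML libraries. It was lower in MaSC/basal cells, by -0.60 ± 0.13 (adjusted p = 0.00270) for MaSC/basal minus LP and -1.06 ± 0.13 (adjusted p = 6.11e-05) for MaSC/basal minus ML. The difference of LP from ML was -0.46 ± 0.13 (adjusted p = 0.0225), lost without any 1 of LP 2, LP 3, ML 1 or ML 3 (adjusted p = 0.0509 to 0.1002). Pdk2, the widely expressed form, was at 17.5, 25.3 and 17.9 CPM in MaSC/basal, 32.4, 21.6 and 28.7 in LP and 32.1, 30.0 and 33.1 in ML libraries, with MaSC/basal minus ML at -0.65 ± 0.19 (adjusted p = 0.0145), lost without MaSC/basal 1 (adjusted p = 0.0636). Pdk4 was 89.6% ± 1.21 (SD, n = 3) of the 3 kinases per kb for MaSC/basal cells, 86.9% ± 4.47 for LP cells and 48.2% ± 13.7 for ML cells.

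Pfkfb3 and Pfkfb4 make the allosteric activator of phosphofructokinase. Pfkfb3 (chr2:11471430-11554071) was at 83.3, 66.3 and 113 CPM in MaSC/basal, 1379, 817 and 1017 in LP and 1137, 753 and 957 in ML libraries. Both luminal populations were far above MaSC/basal cells, at -3.61 ± 0.29 (adjusted p = 4.03e-06) for MaSC/basal minus LP and -3.44 ± 0.28 (adjusted p = 4.49e-06) for MaSC/basal minus ML, and overlapped each other. Handling and stress genes, of which immediate early genes form most, summed to 7628 to 21926 CPM in the MaSC/basal libraries, 15677 to 34799 in the LP libraries and 16720 to 26534 in the ML libraries, and their part in this difference was not tested. Pfkfb4 was highest in ML cells, at 6.38, 8.59 and 7.52 CPM in MaSC/basal, 4.90, 7.11 and 7.37 in LP and 22.7, 16.3 and 18.6 in ML libraries, with -1.36 ± 0.21 (adjusted p = 3.19e-04) for MaSC/basal minus ML and -1.57 ± 0.21 (adjusted p = 0.00111) for LP minus ML.

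**Figure D2:**
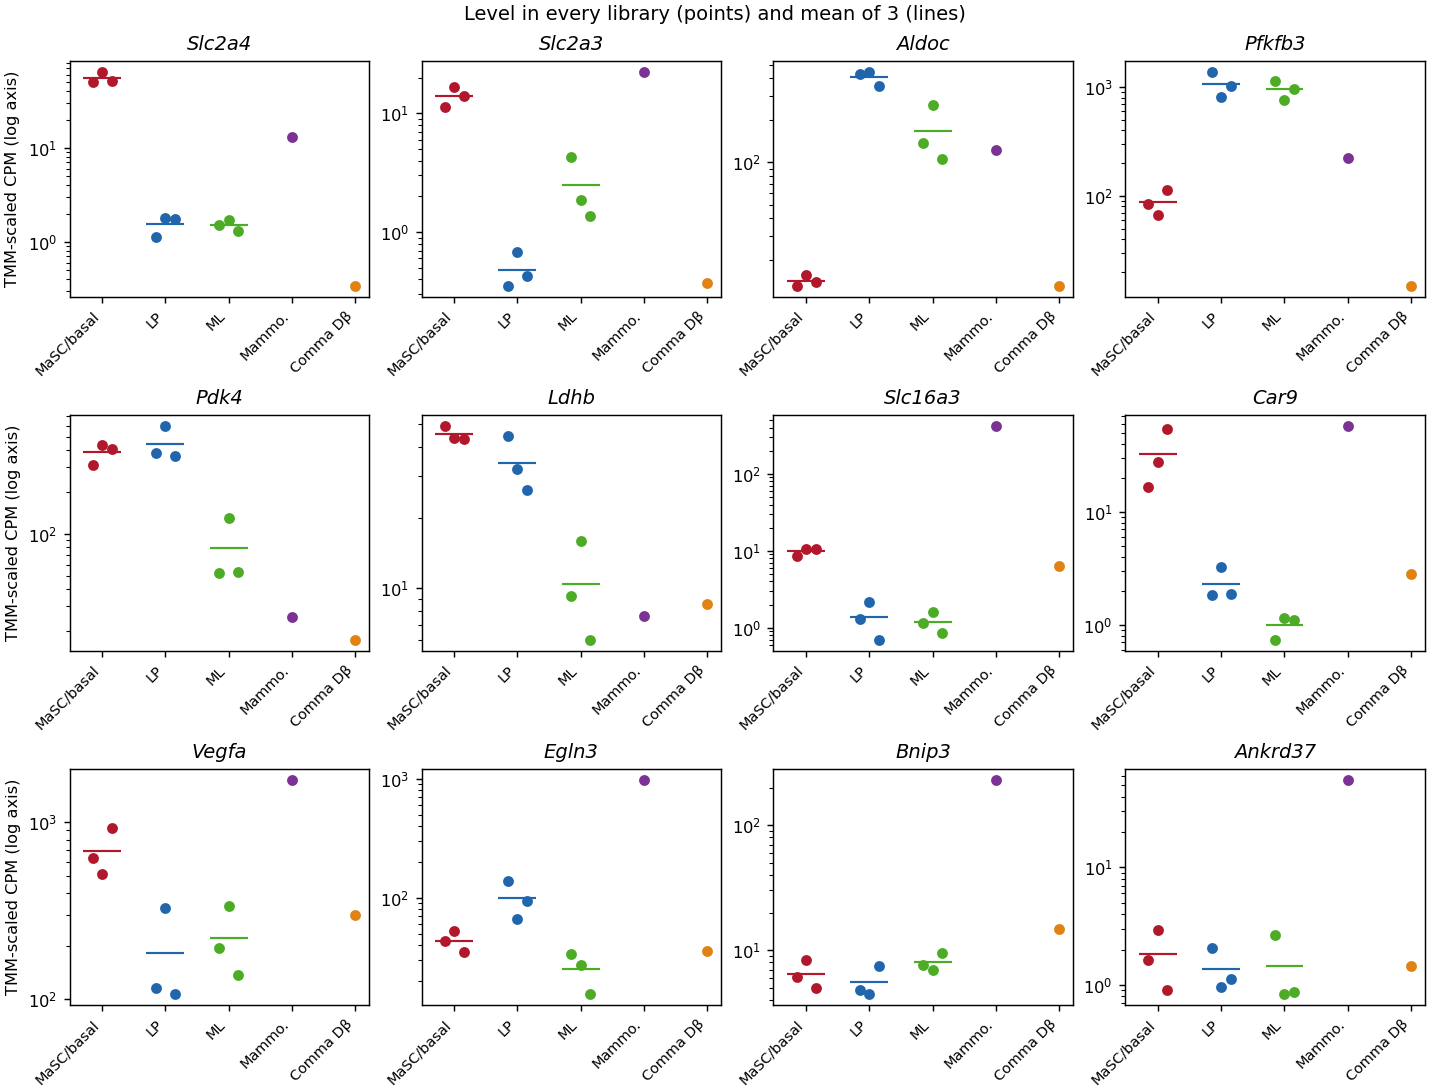
TMM-scaled CPM (log axis) of 12 members in every library, with points for libraries and lines for the mean of 3. MaSC/basal points sit above all luminal points for Slc2a4, Slc2a3, Slc16a3, Car9 and Vegfa and below them for Aldoc and Pfkfb3. The single mammosphere point is above all others for Slc16a3, Egln3, Bnip3 and Ankrd37, and by less for Slc2a3, Car9 and Vegfa.

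Of the 4 oxygen-sensing members, 3 were higher and 1 lower in MaSC/basal than in LP cells, where the shares of all genes were 29.4% and 28%. Epas1 encodes the second HIF alpha subunit. It was at 241, 391 and 282 CPM in MaSC/basal, 116, 139 and 81.7 in LP and 33.7, 72.7 and 39.01 in ML libraries, without overlap, and MaSC/basal exceeded LP by 1.44 ± 0.32 (adjusted p = 0.00305) and ML by 2.65 ± 0.33 (adjusted p = 6.89e-05). Between the luminal populations the difference (LP minus ML) was 1.21 ± 0.31 (adjusted p = 0.0167), lost without any 1 of LP 2, ML 1 or ML 3 (adjusted p = 0.0548 to 0.0619). Endothelial cells express Epas1, and the 8 endothelial markers summed to 55.7 to 115 CPM in the MaSC/basal libraries, 12.3 to 32.5 in the LP libraries and 12.8 to 51.6 in the ML libraries, none of them at 0 and 7 of them higher in MaSC/basal than in LP cells, and their part in the Epas1 difference was not tested. Hif1a, the first alpha subunit, was variable, at 454, 248.7 and 650.3 CPM in MaSC/basal, 177, 243 and 249.3 in LP and 506, 359.7 and 455 in ML libraries. MaSC/basal minus LP was 1.02 ± 0.31 (adjusted p = 0.0171) although the groups overlapped, and the call was lost without any 1 of MaSC/basal 3 or LP 1 (log2 fold change 0.68 to 0.86, adjusted p = 0.0660 to 0.0710). For LP minus ML the value was -0.98 ± 0.31 (adjusted p = 0.0356), lost with library batch as a replicate block, at -0.98 (adjusted p = 0.0510), and without any 1 of MaSC/basal 1, LP 1, LP 2, LP 3, ML 1 or ML 3 (adjusted p = 0.0539 to 0.121). Epas1 made up 39.4% ± 16.5 (SD, n = 3) of both alpha subunits per kb for MaSC/basal cells, 31.1% ± 7.52 for LP cells and 9.30% ± 5.20 for ML cells.

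The prolyl hydroxylases Egln1 and Egln3, the first the main oxygen sensor and both known as HIF targets themselves, had different patterns. Egln1 was at 43.96, 55.4 and 31.8 CPM in MaSC/basal, 23.0, 26.8 and 23.7 in LP and 28.5, 30.3 and 28.1 in ML libraries. MaSC/basal was higher by 0.83 ± 0.18 (adjusted p = 0.00314) over LP and 0.59 ± 0.18 (adjusted p = 0.0178) over ML, the latter lost without any 1 of MaSC/basal 2, ML 1 or ML 3 (adjusted p = 0.0508 to 0.0559). Egln3 (chr12:54178981-54203874) was at 43.0, 52.2 and 35.2 CPM in MaSC/basal, 139, 66.6 and 94.6 in LP and 33.6, 27.1 and 15.5 in ML libraries. It was highest in LP in every library, with -1.20 ± 0.32 (adjusted p = 0.00853) for MaSC/basal minus LP and 1.98 ± 0.33 (adjusted p = 0.00228) for LP minus ML, and MaSC/basal minus ML was 0.77 ± 0.32 (adjusted p = 0.0591).

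Of the 6 hypoxia targets, 3 were higher and 1 lower in MaSC/basal than in LP cells (29.4% and 28% of all genes). Against ML cells 2 were higher in MaSC/basal cells (28.9%). Car9, a cell-surface carbonic anhydrase used as a hypoxia marker (chr4:43507026-43513729), was at 16.7, 27.3 and 54.2 CPM in MaSC/basal, 1.83, 3.22 and 1.87 in LP and 0.735, 1.143 and 1.09 in ML libraries. MaSC/basal libraries were all above luminal ones, by 3.79 ± 0.44 (adjusted p = 4.98e-05) over LP and 5.03 ± 0.48 (adjusted p = 1.07e-05) over ML. The difference of LP from ML was 1.24 ± 0.45 (adjusted p = 0.0609), or 1.25 (adjusted p = 0.0221) under the replicate block (library batch). The gene overlaps Tpm2, a muscle tropomyosin gene at 1081, 1569 and 1282 CPM in MaSC/basal and 5.11 to 15.4 CPM in luminal libraries, and Arhgef39, at 31.1, 49.0 and 79.6 and 0.635 to 1.89 CPM. All 3 genes were thus high in MaSC/basal and low in luminal libraries. Strand handling of the counting is not given in the sources used here, and the part of the neighbours in the Car9 counts was not tested.

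Vegfa, the growth factor for blood vessels, was at 631, 514 and 934 CPM in MaSC/basal, 116, 327 and 107 in LP and 193, 337 and 136 in ML libraries. MaSC/basal was above both, by 1.92 ± 0.48 (adjusted p = 0.00644) over LP and 1.64 ± 0.48 (adjusted p = 0.0134) over ML, the latter lost without MaSC/basal 3 (adjusted p = 0.0542). Ndrg1, a stress-responsive gene, was at 367, 353 and 585 CPM in MaSC/basal, 1233, 1633 and 1100.2 in LP and 712, 864 and 386 in ML libraries, highest in LP. MaSC/basal minus LP was -1.60 ± 0.32 (adjusted p = 0.00173) and LP minus ML 1.02 ± 0.32 (adjusted p = 0.0342), the latter lost without any 1 of LP 1, LP 2, ML 1 or ML 3 (adjusted p = 0.0597 to 0.104). MaSC/basal minus ML was -0.59 ± 0.31 (adjusted p = 0.133), or -0.81 (adjusted p = 0.0174) with library batch as a replicate block. Ddit4, an inhibitor of mTOR signalling, was at 229, 199 and 182 CPM in MaSC/basal, 119.6, 90.6 and 68.1 in LP and 226, 166 and 96.6 in ML libraries, with MaSC/basal over LP at 1.13 ± 0.30 (adjusted p = 0.00800). Between the luminal populations the difference (LP minus ML) was -0.81 ± 0.29 (adjusted p = 0.0604), or -0.77 (adjusted p = 0.00344) with library batch as a replicate block. Bnip3, a mitophagy gene, was at 6.11, 8.37 and 4.99 CPM in MaSC/basal, 4.80, 4.46 and 7.48 in LP and 7.64, 6.94 and 9.52 in ML libraries. Ankrd37, an ankyrin-repeat gene, was at 1.65, 2.91 and 0.904 CPM in MaSC/basal, 2.05, 0.955 and 1.12 in LP and 2.66, 0.837 and 0.866 in ML libraries. Both were low in all sorted cells, with overlapping groups, and passed in no comparison.

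**Figure D3:**
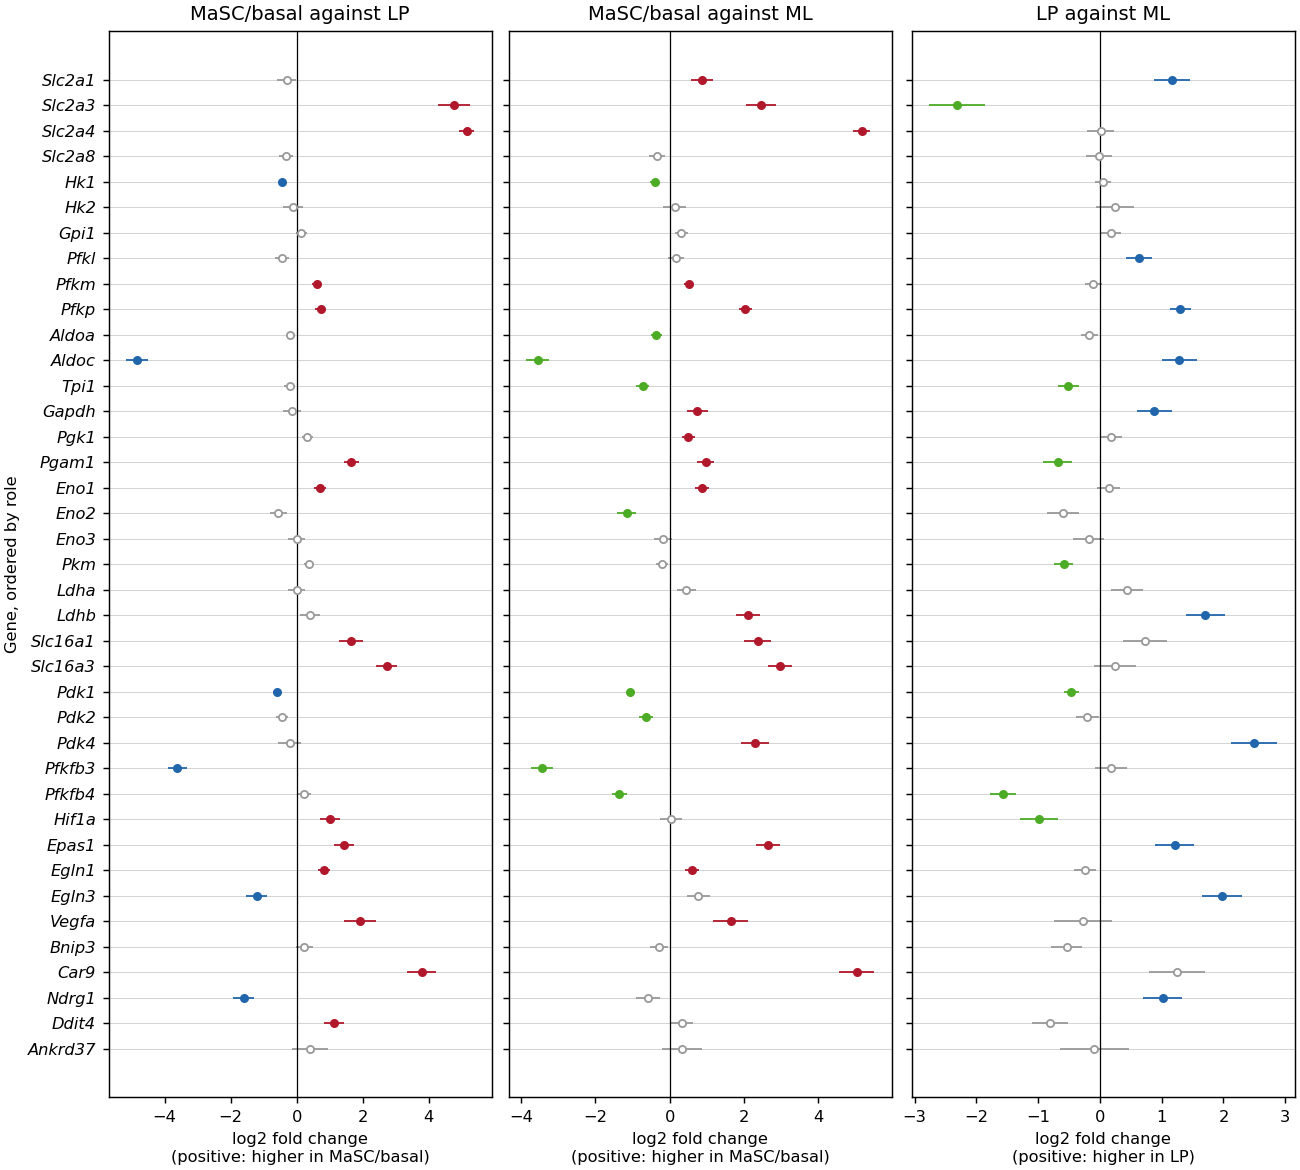
Log2 fold change (points) and standard error (bars) of each of the 39 members in the 3 comparisons of sorted populations, 3 libraries in each group. Filled points passed at an adjusted p under 0.05 and are coloured by the higher group (red MaSC/basal, blue LP, green ML), and open grey points did not pass.

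Some libraries were high or low in their group for many members. LP 2 was the highest of the 3 LP libraries for 22 of the 39 members (35.8% of all genes tested) and LP 3 the lowest for 19 (31.2%). ML 3 was the lowest of the ML libraries for 26 members (35.1% of all genes) and the highest for 6 (36.0%). For Vegfa the libraries of batch 2, LP 2 and ML 2, were above every other luminal library (values above). Batch, animal and depth cannot be told apart here, since LP 3 and ML 3 were also the shallowest libraries, with 19958838 and 21311068 counted reads. The make-up of the sorted cells also differed, since the luminal progenitor markers summed to 447 to 1273 CPM over the ML libraries. In ML 1, 2 and 3, Kit was at 164, 298 and 148 CPM and Cd14 at 234, 586 and 151 CPM. The basal markers summed to 83.8 to 406 CPM over the ML libraries, ML 3 being highest for all but Oxtr. Krt5 was at 13.2, 14.6 and 141 CPM and Krt14 at 23.1, 27.3 and 110 CPM in ML 1, 2 and 3. The part of these markers in the differences between libraries was not tested.

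The mammosphere library was compared with MaSC/basal cells, the population that was put into culture. The single mammosphere library was set beside the mean log2(CPM + 0.5) of the 3 MaSC/basal libraries, and a member was counted when the difference exceeded 1 (2-fold) and the value lay outside the 3 libraries. There is no replicate and no test. In the mammosphere library 25 of 39 members (64.1%) were higher, against 17.2% of the 15422 genes, and 6 (15.4%) were lower, against 17.5%. The median difference of the members was 1.56 and that of all genes -0.01. Of the members, 26 lay above all 9 primary libraries, where 19.8% of all genes did, and 1 lay below them all, where 19.3% did. The higher members were 13 of 16 glycolytic enzymes, 5 of 6 hypoxia targets, both Pfkfb genes, 2 of 4 lactate members, 2 of 4 oxygen-sensing members and 1 of 3 kinases, and none of the 4 glucose transporters. Among them Gpi1, Gapdh, Pgk1, Pgam1, Eno1, Pkm, Ldha and Bnip3 have near-identical copies, so that their levels are uncertain.

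The largest difference was that of the lactate exporter Slc16a3, at 422 CPM in the mammosphere library against 8.5, 10.5 and 10.6 in MaSC/basal libraries, a difference of 5.35 on the log2 scale. Slc16a1, its counterpart, was lower, at 65.0 CPM and a difference of -1.73. Between them the share of Slc16a3 per kb went from 7.24% ± 0.655 (SD, n = 3) to 91.8%. The overlapping Csnk1d was at 198 CPM there, below its MaSC/basal level.

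The hypoxia targets Bnip3 and Ankrd37, both low in sorted cells, were at 230.1 and 55.5 CPM, differences of 5.07 and 4.69. Egln3 was at 981 CPM (4.50) and Egln1 at 235 CPM (2.45). Vegfa was at 1739.5 CPM (1.37), Ddit4 at 744 (1.87) and Ndrg1 at 1595 (1.91). Car9 was at 57.5 CPM, 0.97 above the MaSC/basal mean and so just short of 2-fold, while the overlapping Tpm2 and Arhgef39 were at 314 and 6.90 CPM, both below every MaSC/basal library.

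Enzymes were higher in this library at each step from glucose phosphate to lactate. The steps of Gpi1, Gapdh, Pgk1, Pgam1, Pkm and Ldha rest only on members with near-identical copies, whose levels are uncertain. In order, Gpi1 was at 575 CPM (difference 1.56), Pfkl at 611 (2.11), Pfkp at 402 (1.23), Aldoa at 1861 (2.49), Aldoc at 122 (3.06) and Tpi1 at 866 (2.85). Further down, Gapdh was at 11.5 CPM (1.01), Pgk1 at 213 (3.25), Pgam1 at 107 (2.06), Pkm at 3273 (2.49) and Ldha at 1861 (1.66). All 3 enolases were higher, Eno2 most, at 82.7 CPM (4.02), with Eno1 at 252 (2.09) and Eno3 at 18.4 (1.36). Skeletal muscle expresses Eno3, and the 11 muscle markers summed to 161 CPM in the mammosphere library against 3.2 to 12.9 in primary libraries, 7 of the 8 tested being over 2-fold higher and Ckm under 1 CPM, and their part in the muscle-type enzymes was not tested. Hk1 (0.74), Hk2 (0.43) and Pfkm (-0.35) stayed within 2-fold. The regulators Pfkfb4 and Pfkfb3 were at 31.3 and 224 CPM (2.00 and 1.38), Pfkfb3 still being below every luminal library.

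The order of the pyruvate dehydrogenase kinases was reversed. Pdk1 was at 206 CPM against 18.5, 22.7 and 19.5 in MaSC/basal libraries (3.32) and Pdk4 at 25.2 against 310.3, 437 and 409.9 (-3.89), so that the share of Pdk1 per kb went from 3.20% ± 0.331 (SD, n = 3) to 70.6% and that of Pdk4 from 89.6% ± 1.21 to 12.9%. Pdk4 was the member that lay below all 9 primary libraries. The other lower members were Epas1, at 43.4 CPM (-2.77), Ldhb at 7.64 (-2.49), Slc2a4 at 12.97 (-2.05), Slc16a1 (above) and Hif1a at 194 (-1.11), so that both HIF alpha transcripts were lower and 5 of the 6 hypoxia targets higher. Of the transporters, Slc2a1 was at 820.4 CPM (1.00, just short of 2-fold but above all 9 primary libraries) and Slc2a3 at 22.3 (0.68).

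Other lists also moved in the mammosphere library. Handling and stress genes summed to 1544 CPM there, under the lowest primary library, and fibroblast markers to 2562 CPM against 598 to 887 in MaSC/basal libraries. Of the 5 luminal progenitor markers, 4 were over 2-fold higher, with a sum of 673 CPM against 103 to 124, and 6 of 7 basal markers were over 2-fold lower. Their part in the differences of the members was not tested.

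**Figure D4:**
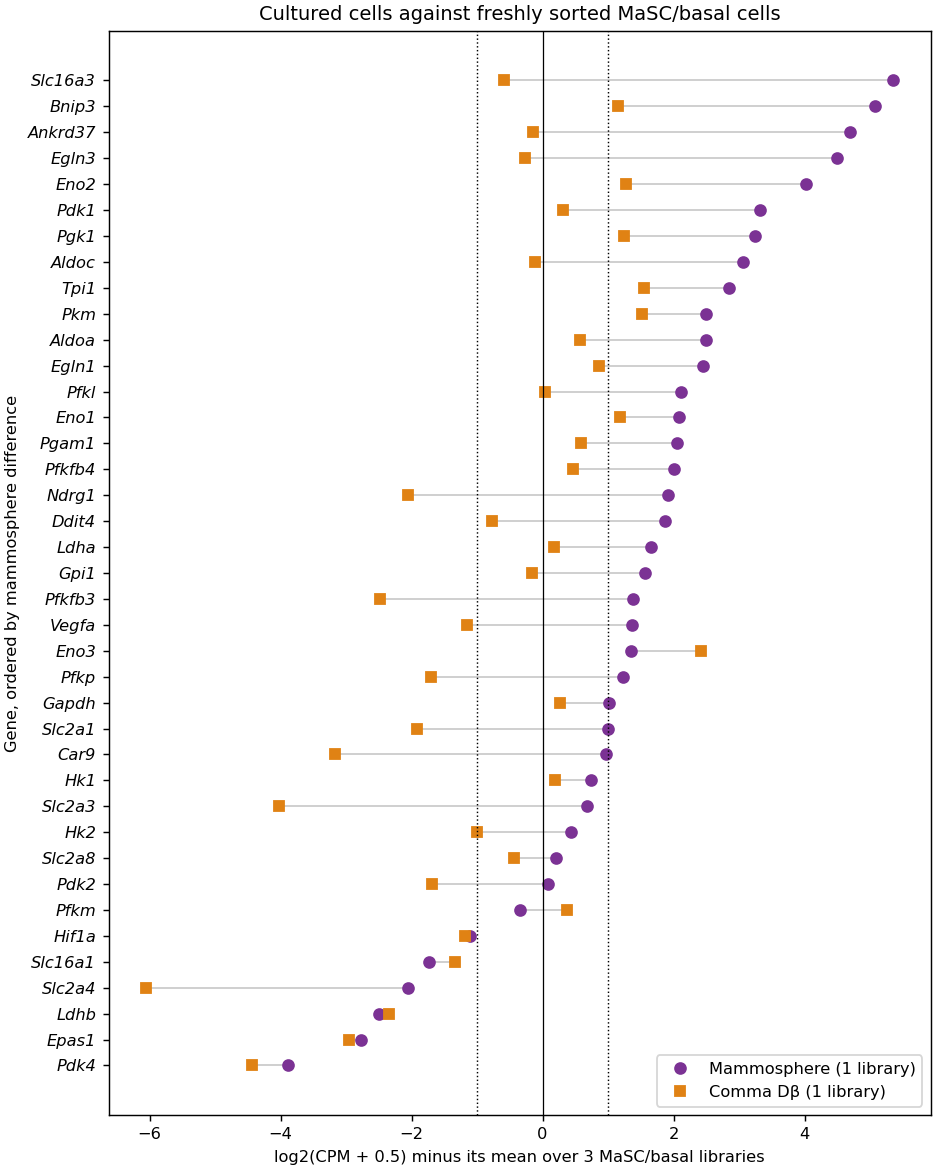
Difference of each member in the mammosphere library (circles) and the Comma Dβ library (squares) from the mean of the 3 MaSC/basal libraries on the log2(CPM + 0.5) scale, 1 library each and no error. Dotted lines mark 2-fold. Circles lie right of the upper line for 25 members and left of the lower line for 6, squares for 7 and 14.

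The promoters of these genes were searched for ACGTG, the core that the HIF dimer binds, on both strands in 300 bases from 250 before to 50 after each RefSeq start (GRCm38.p6), a gene with several starts counting if any window held it. Of the 39 members 35 were matched to a promoter, the others being Slc2a3, Slc2a4, Epas1 and Ndrg1. ACGTG was found in 23 of the 35 (65.7%), against 21.8% of 27025 genes, and GCGTG, an alternative core, also in 23 (65.7%), against 35.2%. The list was drawn up from glycolysis and hypoxia genes, so that an excess of these cores was largely built in and is no support. The 27025 genes were not limited to those expressed here, nor matched for the number of starts. ACGTG did not separate the members by their mammosphere level, since it was in 15 of the 24 matched members that were over 2-fold higher (62.5%) and in 8 of the other 11 (72.7%). Shown are the 250 bases before the start, in the direction of the gene, of the 4 matched members with the largest mammosphere differences, which all hold ACGTG, of Pgk1 and of Ldha, which has the most matches. Capitals mark ACGTG, or CACGT where the core is on the other strand, and CACGTG holds an overlapping match on each strand. A match is a run of letters, not a measured binding site. The windows of Slc16a3, Ankrd37 and Ldha precede a RefSeq start that lies inside the annotated gene.
Slc16a3 (chr11:120948817-120949066, plus strand): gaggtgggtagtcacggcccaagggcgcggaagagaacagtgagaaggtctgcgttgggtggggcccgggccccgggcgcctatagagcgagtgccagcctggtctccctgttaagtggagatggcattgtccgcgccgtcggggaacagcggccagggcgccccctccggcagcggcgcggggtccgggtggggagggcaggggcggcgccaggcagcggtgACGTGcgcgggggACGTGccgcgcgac
Bnip3 (chr7:138909507-138909756, minus strand): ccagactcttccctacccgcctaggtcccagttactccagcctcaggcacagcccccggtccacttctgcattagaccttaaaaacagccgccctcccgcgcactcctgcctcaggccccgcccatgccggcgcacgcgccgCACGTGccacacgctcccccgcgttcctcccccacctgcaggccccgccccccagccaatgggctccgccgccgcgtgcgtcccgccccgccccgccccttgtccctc
Ankrd37 (chr8:45999851-46000100, minus strand): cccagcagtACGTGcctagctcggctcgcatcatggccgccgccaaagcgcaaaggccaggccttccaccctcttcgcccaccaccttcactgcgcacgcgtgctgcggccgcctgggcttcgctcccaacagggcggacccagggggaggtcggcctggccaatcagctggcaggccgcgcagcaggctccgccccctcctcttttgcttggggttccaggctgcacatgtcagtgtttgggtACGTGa
Egln3 (chr12:54203875-54204124, minus strand): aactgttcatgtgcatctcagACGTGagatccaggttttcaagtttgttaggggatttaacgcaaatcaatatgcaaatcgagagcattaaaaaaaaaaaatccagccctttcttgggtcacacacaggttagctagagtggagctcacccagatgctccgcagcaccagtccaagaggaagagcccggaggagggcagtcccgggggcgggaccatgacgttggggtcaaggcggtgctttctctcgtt
Pgk1 (chrX:106186850-106187099, plus strand): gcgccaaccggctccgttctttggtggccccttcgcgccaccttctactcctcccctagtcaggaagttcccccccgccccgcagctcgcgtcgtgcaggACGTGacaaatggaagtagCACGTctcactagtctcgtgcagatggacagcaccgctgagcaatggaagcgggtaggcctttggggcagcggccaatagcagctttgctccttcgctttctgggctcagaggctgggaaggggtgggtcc
Ldha (chr7:46845554-46845803, plus strand): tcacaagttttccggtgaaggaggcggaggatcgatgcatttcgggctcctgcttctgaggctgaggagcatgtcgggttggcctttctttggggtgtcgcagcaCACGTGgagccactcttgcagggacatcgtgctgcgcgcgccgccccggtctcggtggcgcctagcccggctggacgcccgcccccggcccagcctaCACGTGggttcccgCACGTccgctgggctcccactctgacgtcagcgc

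In Slc16a3 the 2 matches start 27 and 14 bases before the start site and in Egln3 the only one starts 229 bases before it. Bnip3 holds the palindrome CACGTG, at 108 and 107 bases, and Ldha holds it at 2 places, at 145 and 144 and at 48 and 47 bases, with a further match at 34. Eno2 and Tpi1, over 2-fold higher in the mammosphere library as well, hold neither core in this window.

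The Comma Dβ line was set beside the same 3 MaSC/basal libraries. Of the 39 members 7 were over 2-fold higher than in MaSC/basal cells (15% of all genes) and 14 were lower (20.9%), with a median difference of -0.16 against 0.01 for all genes. Above all 9 primary libraries lay 10 members (26.7% of all genes) and below them 8 (27.1%). The higher ones were Eno3, at 38.7 CPM against 5.72, 7.36 and 7.65 in MaSC/basal libraries (2.41), Tpi1 at 352 (1.56), Pkm at 1671 (1.52), Eno2 at 11.9 (1.27), Pgk1 at 52.4 (1.24), Eno1 at 135 (1.19) and Bnip3 at 14.8 (1.16). Without the 9 members that have near-identical copies, 3 remained. Of the 7 fibroblast markers 5 were over 2-fold higher and 2 lower, with a sum of 4011 CPM against 598 to 887 in MaSC/basal libraries, and proliferation genes summed to 2095 CPM against 685 to 1013. All 13 handling and stress genes were over 2-fold lower, with a sum of 2596 CPM against 7628 to 21926. Their part in the differences of the members was not tested.

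The lower members of Comma Dβ included 3 of the 4 glucose transporters. Slc2a4 was at 0.340 CPM (-6.05, from 10 reads), Slc2a3 at 0.374 (-4.02, from 11 reads) and Slc2a1 at 108 (-1.92). Pdk4 was at 17.2 CPM (-4.43), Car9 at 2.79 (-3.17), Epas1 at 38.2 (-2.95), Pfkfb3 at 14.9 (-2.48), Ldhb at 8.54 (-2.34) and Ndrg1 at 101 (-2.06). Pfkp (-1.71), Pdk2 (-1.69), Slc16a1 (-1.34), Hif1a (-1.19) and Vegfa (-1.16) completed the list. Both cultured libraries share those controls. Pdk4, Epas1, Ldhb, Slc2a4, Slc16a1 and Hif1a were lower in each, and Slc16a3 (5.35 and -0.58), Ankrd37 (4.69 and -0.15) and Egln3 (4.50 and -0.27) were over 2-fold higher in mammospheres with values near or below the MaSC/basal mean in Comma Dβ.

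**Figure D5:**
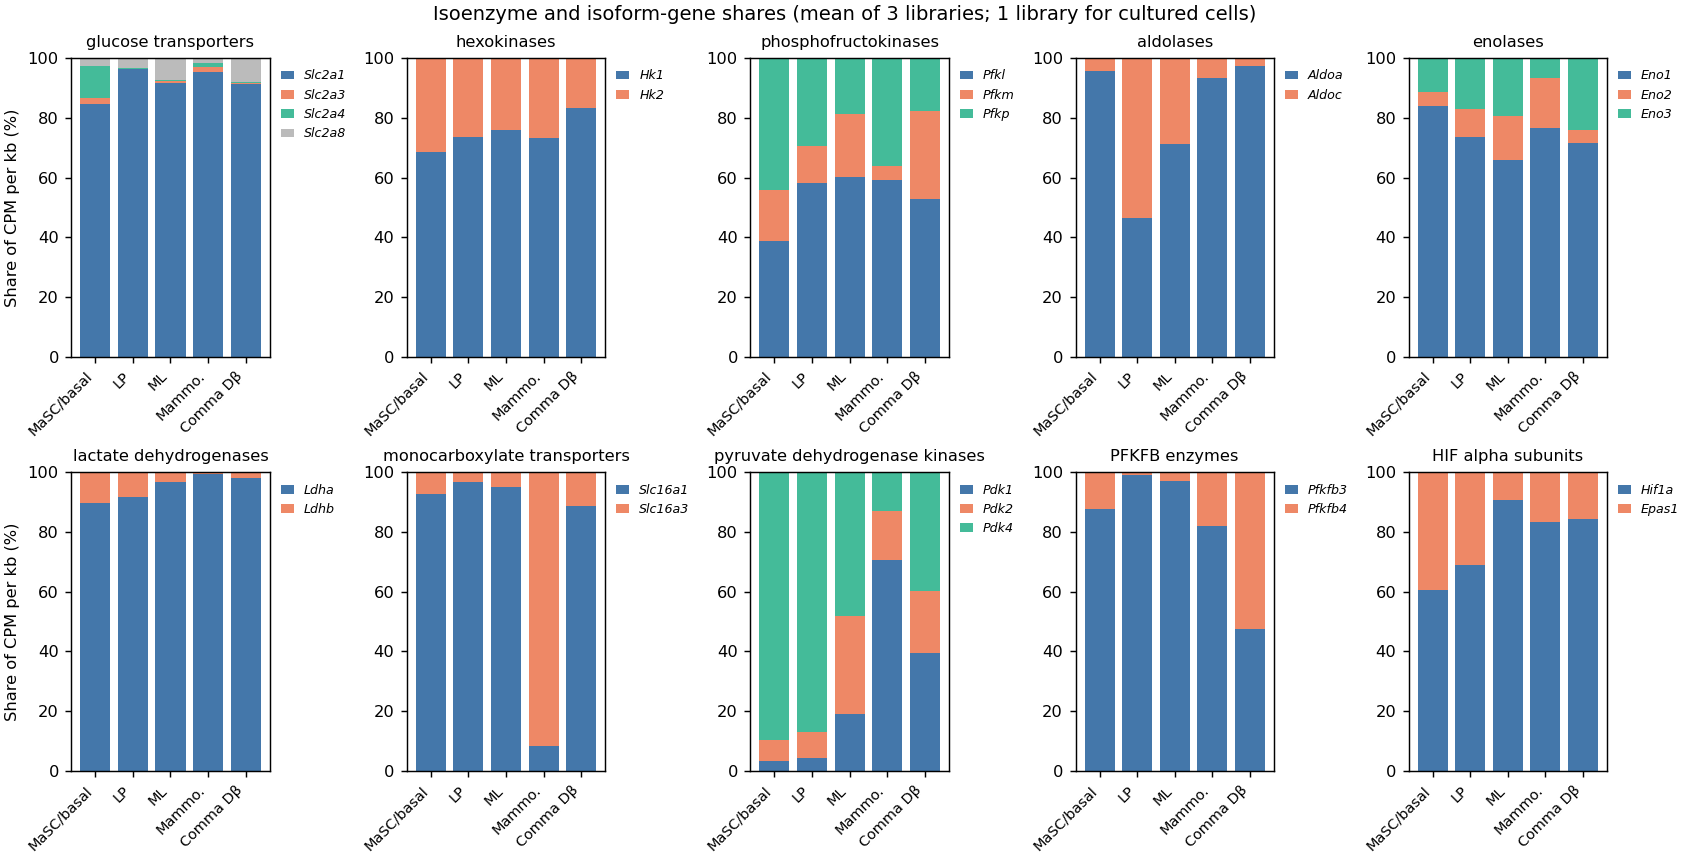
Share of each gene in the summed CPM per kb of exon of its family (percent, stacked bars, 10 families) in the 5 sample types, as the mean of 3 libraries or 1 library for cultured cells. Aldoc is 53.6% of the aldolases in LP cells, Slc16a3 is 91.8% of the monocarboxylate pair in mammospheres, and Pdk4 gives way to Pdk1 there.

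Among listed genes of the same pathways, the 35 other hypoxia targets had 27 genes over 2-fold higher and 2 lower in the mammosphere library and 5 higher and 12 lower in Comma Dβ cells, with medians of 1.87 and -0.25. Of all genes, 17.2% were higher and 17.5% lower in the mammosphere library, and 15% and 20.9% in Comma Dβ cells. Lox, a collagen cross-linking enzyme, went from 4.84 CPM in MaSC/basal cells to 201 in mammospheres and 436 in Comma Dβ. Angptl4, a lipase inhibitor, was lower in both, at 431, 29.4 and 17.3 CPM. Between sorted cells, 13 were higher and 8 lower in MaSC/basal than in LP cells (median 0.25), 15 and 7 against ML (0.45), and 13 were higher and 5 lower in LP than in ML (0.37). In the same order the shares of all genes were 29.4% and 28%, 28.9% and 29.7%, and 14.3% and 17.5%. Stc2, a secreted glycoprotein, had mean levels of 9.10 CPM for MaSC/basal cells, 168 for LP cells and 1089 for ML cells, whereas Plod2, a collagen lysyl hydroxylase, had 55.1, 4.10 and 1.74 CPM (log2 fold changes over LP of -4.20 ± 0.42, adjusted p = 1.68e-05, and 3.72 ± 0.36, adjusted p = 1.45e-05).

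The pentose phosphate pathway, which branches off at glucose phosphate, had 5 of 7 genes lower in MaSC/basal than in LP cells, 5 of 7 lower than in ML cells and none higher (medians -0.77 and -0.82). G6pdx, its first enzyme, had mean levels of 42.9 CPM for MaSC/basal cells, 72.8 for LP cells and 185 for ML cells, with MaSC/basal minus ML at -2.11 ± 0.16 (adjusted p = 2.21e-06). Tkt, transketolase, had 180.5, 531 and 318 CPM. In the mammosphere library 3 of the 7 were over 2-fold higher and 1 lower. A list of 10 genes covered pyruvate entry into mitochondria and pyruvate dehydrogenase. Of these, 3 were higher and 1 lower in MaSC/basal than in LP cells, 1 was higher than in ML cells, and none differed 2-fold in mammospheres. Pdk3, a further pyruvate dehydrogenase kinase, was at 38.8 CPM for MaSC/basal cells, 12.4 for LP cells and 11.7 for ML cells. Of 13 other glycolytic enzymes tested, 3 were higher and 4 lower in MaSC/basal than in LP, 2 and 6 against ML, and 6 were higher and none lower in mammospheres, with Pgm1, phosphoglucomutase, at 258 CPM against 50.6. Beside these 3 lists, 29.4% of all genes were higher and 28% lower in MaSC/basal than in LP cells. Against ML the shares were 28.9% and 29.7%, and in the mammosphere library 17.2% and 17.5%. A count near its share is no trait of the list.

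Of 8 other glucose transporters tested, 3 were higher and 2 lower in MaSC/basal than in LP cells and 4 and 4 against ML. Slc5a1, a sodium-coupled transporter, had 0.971 CPM for MaSC/basal cells, 75.9 for LP cells and 22.2 for ML cells and 49.1 CPM in the mammosphere library. Of 11 other oxygen-sensing genes, 4 were higher and 1 lower in MaSC/basal than in LP, 3 and 2 against ML, and 2 and 2 differed 2-fold in mammospheres. Arnt2, a partner of the HIF alpha subunits, had 18.3 CPM for MaSC/basal cells, 1.22 for LP cells and 0.361 for ML cells, while Hif3a, another alpha subunit, was at 11.1 CPM in mammospheres against 0.137 in MaSC/basal cells. Of 4 gluconeogenesis genes tested, 1 was lower in MaSC/basal than in LP and all 4 than in ML cells, led by Pcx, pyruvate carboxylase, at 13.8, 120 and 86.5 CPM. For these lists too the shares of all genes were 29.4% higher and 28% lower in MaSC/basal than in LP cells. They were 28.9% and 29.7% against ML, and 17.2% and 17.5% in the mammosphere library.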

How the data were processed

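Single-end RNA-seq reads were aligned to mm10 by the authors with Rsubread and counted per Entrez gene with featureCounts, and they deposited raw counts, 1 table per library (base calling with CASAVA 1.8.0). Handling of strand and of multi-mapping reads is not given in the sources used here. The labels name TruSeq kit version 1 for batch 1 and version 2 for batches 2 and 3. Genes over 0.5 CPM in at least 3 of 11 libraries (15422 of 27179) were fitted with edgeR 4.0.16 (quasi-likelihood F-test, TMM, group means for 5 sample types), and p-values were adjusted over all of them by Benjamini-Hochberg. Symbols came from RefSeq for 25275 genes. Each library is described as an independent sample. Counted reads were 19958838 to 75795034 per library, and 3 reads were taken as the floor, which covers counting error only. The standard errors and SDs include the spread between libraries. Isoenzyme ratios (CPM per kb) were tested by two-sided exact permutation, adjusted over 12 comparisons.

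The members and all gene lists were chosen with earlier results of these data known. All 39 members are accounted for. Values in every sorted library are given for isoenzyme pairs. The same holds for members that passed at over 2-fold in a comparison of sorted cells or differed 2-fold in culture. Other lists are given by counts with up to 4 of their largest members. The labelled batches pair the libraries in part. Deviations from group means correlated at a median of 0.240 (-0.118 to 0.526) over 9 pairs of one batch. Over 18 other pairs the median was -0.103 (-0.419 to 0.114). The main test does not use this pairing. On simulated counts for MaSC/basal against LP (15422 genes, 200 changed) 47% of changes of log2 1 and 89% of log2 2 were recovered, with 6 false calls. The real comparison called 8853 genes, and the simulated libraries held no batch differences. The simulated rates therefore check the code and do not describe the real test. Alternatives were DESeq2 size factors and test, limma-voom, no scaling, no filter, a fit of the 9 sorted libraries only, the batch as a replicate block and each library left out.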

Additional observations from a re-analysis of the deposited data

How the results depend on the processing

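No member that passed in a comparison of sorted cells changed direction under any alternative run. Of 1989 single-member values under alternatives, 93 lost a call, 30 gained one and 58 changed direction, all of the last for members that had not passed.

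With library batch as a replicate block, 6 calls were gained and 2 lost (values beside the results), and 5 differences that had not passed changed direction: Eno3 0.20 and Ldha -0.18 (MaSC/basal minus LP), Hk2 -0.13 and Eno3 0.033 (minus ML) and Slc2a4 -0.00040 (LP minus ML). Without scaling the differences with a changed direction were 0.052 for Hk2 and 0.14 for Eno3 (MaSC/basal minus LP), and -0.16 for Slc2a4, -0.12 for Hk1, -0.0013 for Gpi1, -0.030 for Eno1 and -0.0026 for Pfkfb3 (LP minus ML). With limma-voom they were 0.044 for Eno3 (minus LP), -0.070 for Hif1a (MaSC/basal minus ML), and -0.016 for Slc2a4 and 0.072 for Ankrd37 (LP minus ML). Eno3 gave 0.0065 with the 9 primary libraries, Ldha -0.0029 with no filter (both minus LP), and Slc2a8 0.0030 with DESeq2 size factors and 0.0021 with the DESeq2 test (LP minus ML). These values are near 0 and the cause was not tested.

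Leaving out 1 library gave 6 to 10 members higher in LP and 2 to 7 higher in ML. The Ldhb to Ldha difference between MaSC/basal and luminal libraries was 0.88 to 1.32 and that of Slc2a3 to Slc2a1 2.97 to 3.95. Differences that turned ranged, for MaSC/basal minus LP, from -0.088 to 0.81 (Ankrd37), -0.14 to 0.15 (Eno3), -0.40 to 0.076 (Gapdh), -0.37 to 0.12 (Hk2), -0.18 to 0.29 (Ldha) and -0.34 to 0.046 (Pdk4). For MaSC/basal minus ML they ranged from -0.16 to 1.08 (Ankrd37), -0.39 to 0.025 (Eno3), -0.31 to 0.35 (Hif1a) and -0.10 to 0.35 (Hk2). For LP minus ML they ranged from -0.48 to 0.68 (Ankrd37), -0.021 to 0.32 (Eno1), -0.40 to 0.025 (Eno3), -0.011 to 0.12 (Hk1), -0.025 to 0.36 (Pfkfb3), -0.18 to 0.0046 (Pfkm), -0.26 to 0.52 (Slc16a3), -0.10 to 0.22 (Slc2a4), -0.19 to 0.12 (Slc2a8) and -0.97 to 0.15 (Vegfa).

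Within batches the Ldhb to Ldha ratio differed by -0.068 in batch 1 and 0.92 in batch 2 (MaSC/basal minus LP), 1.36 in batch 2 (MaSC/basal minus ML), and 1.99 and 0.45 in batches 1 and 2 (LP minus ML). The Hk2 to Hk1 ratio differed by -0.059 in batch 2 (MaSC/basal minus LP). The Slc2a3 to Slc2a1 ratio differed by 0.45 and 2.65 (MaSC/basal minus ML) and -4.94 and -2.47 (LP minus ML) in batches 1 and 2. Without the members that have near-identical copies, 3 members were higher in Comma Dβ cells. Depth limits Slc2a3 in LP and Slc2a3 and Slc2a4 in Comma Dβ cells, where the values rest on few reads.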
